A study of Mus musculus with 8 samples.

Results

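Ornithine decarboxylase and its antizymes were followed through 8 mouse testis libraries as a contrast between a testis antizyme and the ubiquitous ones. The members were all transcripts whose mouse symbol was Odc1, Oaz1, Oaz2 or Oaz3 (listed in lower case in the files, as odc1, oaz1, oaz2 and oaz3). This rule found 6 of 2783 transcripts, from 4 genes, with 2005 of 621202 reads.

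Poly(A) RNA of whole testis from adult males was sequenced directly on Nanopore flow cells, so that each read is 1 RNA molecule with an estimate of its poly(A) tail length in nucleotides (nt). The 4 groups were Tent5c wt/wt mice (wt) given vehicle, wt mice given busulfan at 20 mg/kg, Tent5c dcat/dcat mice (dcat) given vehicle, and dcat mice given the same busulfan dose. Testes were collected 4 weeks after 1 injection, from 2 mice in each group. TENT5C lengthens poly(A) tails in the cytoplasm, and mice with the dcat allele make it without catalytic activity in every cell that expresses the gene. Busulfan is an alkylating drug that depletes dividing germ cells and so, over time, the spermatids that would have come from them.

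Ornithine decarboxylase (ODC1) makes putrescine, the first polyamine, from ornithine. Antizymes bind ODC1, and OAZ1 delivers it to the proteasome. The translation of antizymes needs a +1 ribosomal frameshift that polyamines promote, which closes a feedback loop. OAZ1 and OAZ2 are made in most tissues, whereas OAZ3 is made in haploid germ cells and is needed for a firm connection of the sperm head and tail. Antizyme inhibitors, among them AZIN2 of testis and brain, resemble ODC1 and draw antizymes away from it.

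The sites at which the antizyme frameshift takes place are shown because they are the feature that makes these 3 genes a family. Each was read from the genome (GRCm38.p6) at the single base that the GENCODE vM21 models leave out between adjoining exons to restore the reading frame, and all 3 lie in coding exons. The sites are chr10:80828281-80828310 on the plus strand for Oaz1, chr9:65686258-65686287 on the plus strand for Oaz2 and chr3:94436019-94436048 on the minus strand for Oaz3. Capitals mark the last codon read in the first frame (TCC), the stop codon that the ribosome passes (TGA) and the base after it.
Oaz1 frameshift site: ctcggtggtgcTCCTGATgtccctcaccca
Oaz2 frameshift site: ctctgtggtgcTCCTGATgcccctcaccca
Oaz3 frameshift site: gcctccagtgcTCCTGAGtccctaggaggc

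Within these 30 bases, Oaz1 and Oaz2 were identical at 28 positions. Oaz3 matched Oaz1 at 13 and Oaz2 at 15 of the 30, and the base after the stop codon was G in Oaz3 and T in both others. Across the complete transcripts, no stretch of 20 bases was shared between any pair of the 4 genes (0 in each pair). The pseudogenes Oaz1-ps and Oaz2-ps, which are annotated copies, were not among the transcripts of the table.

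Because poly(A) tails are added downstream of a polyadenylation signal, the last 30 bases of each annotated transcript are also shown, with the signal AATAAA in capitals. These lie in 3′ UTRs, at chr10:80829261-80829290 (Oaz1), chr9:65690271-65690300 (Oaz2), chr3:94433387-94433416 on the minus strand (Oaz3, both transcripts), chr12:17551055-17551084 (Odc1, coding transcript) and chr12:17551476-17551505 (Odc1, second transcript).
Oaz1 transcript end: aaatccAATAAAgtgatctcgttcattggc
Oaz2 transcript end: actgtgtcAATAAActgatttaaagttgtg
Oaz3 transcript end: tcctaggaAATAAAgggtagtgcaatcaaa
Odc1 coding transcript end: gtgaaAATAAAgtatcttgaaataactggg
Odc1 second transcript end: ttcctgtAATAAAttcaacaacagcaacta

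All 6 members held AATAAA in the last 30 bases on the transcript strand, as did 55.6% of the 2738 transcripts of the table that could be found in the annotation. The variant ATTAAA was present in 14.2% of them.

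Oaz3 had 2 transcripts with the same 3′ end. ENSMUST00000199678 (chr3:94433387-94436637) and ENSMUST00000203883 (chr3:94433387-94443833) share 685 exon bases and a 3′ UTR of 120 bases and differ in the first exon. A direct RNA read starts at the tail, so a read that stops before the first exon cannot tell them apart. The Oaz3 locus overlaps Tdrkh on the opposite strand over 340 exon bases, and ENSMUST00000203883 also overlaps Mrpl9 on the opposite strand over 196 exon bases. Neither Tdrkh nor Mrpl9 is among the transcripts of the table. Odc1 also had 2 transcripts. ENSMUST00000171737 (chr12:17544794-17551084) codes for the enzyme, and ENSMUST00000221613 (chr12:17547689-17551505) is annotated as a nonsense-mediated decay product that shares 1477 exon bases with it and ends 421 bases further downstream. Oaz1 and Oaz2 had 1 transcript each, ENSMUST00000180036 (chr10:80826686-80829290) and ENSMUST00000153700 (chr9:65676548-65690300).

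The libraries held 29574 to 129074 reads, and at the smallest the limit set by 3 reads is about 101 CPM (reads scaled to a library of 1000000). The tissue was checked with marker lists. The 14 late spermatid markers, such as the protamines, summed to 93630 to 117719 CPM after vehicle, to 8175 and 10613 in wt after busulfan, and to 21177 and 38139 in dcat after busulfan. The 9 measured Leydig cell markers summed to 3727 to 6695 CPM after vehicle, and after busulfan to 41149 and 46255 in wt and 25715 and 21437 in dcat. The 8 measured Sertoli cell markers summed to 2944 to 4632 CPM after vehicle, and after busulfan to 31642 and 31354 in wt and 28870 and 20155 in dcat. Mitochondrial transcripts took 4.38 to 6.08% of reads after vehicle and 13.97 to 16.2% after busulfan. Of the defining Sertoli markers, Sox9 and Amh were not among the transcripts. Late spermatid markers were still read after busulfan, at higher levels in both dcat libraries than in both wt libraries. Tent5c itself had 42 and 56 reads after vehicle and 18 and 31 after busulfan in wt, and 22 and 115 against 24 and 66 in dcat. The allele changes the protein and not the presence of its transcript, so these reads do not check the genotype labels.

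Oaz3 was the most abundantly read member in every library and was lower after busulfan in both genotypes. After vehicle it had 224 and 207 reads in wt and 54 and 380 in dcat, and after busulfan 75 and 242 in wt and 62 and 152 in dcat. After TMM scaling these are 4330 and 2948 (wt) and 1739 and 3030 (dcat) CPM after vehicle, and 1056 and 2360 (wt) and 987 and 1551 (dcat) after busulfan. The libraries of a group were far apart, and in each genotype the busulfan libraries lay below the vehicle libraries.

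**Figure D1:**
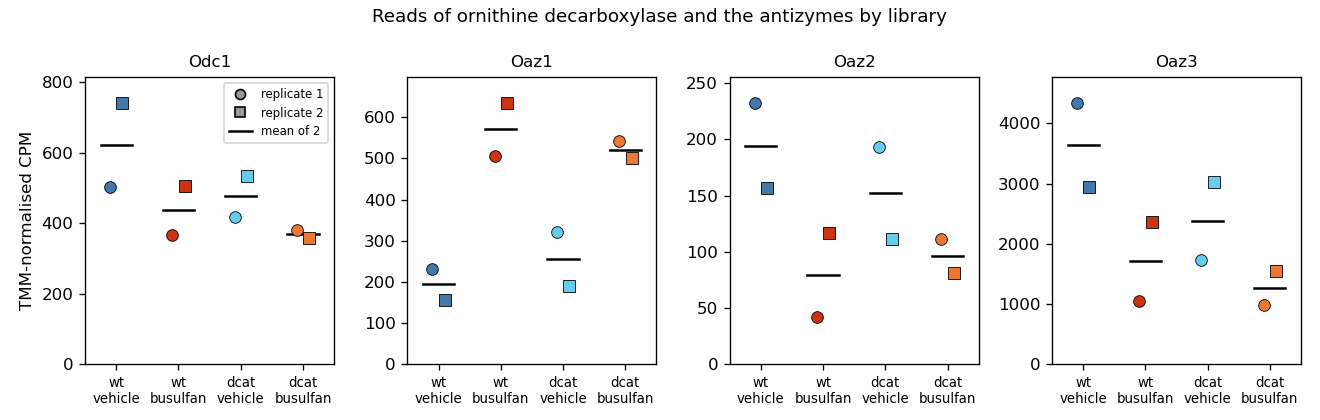
Levels of Odc1, Oaz1, Oaz2 and Oaz3 in CPM (TMM-normalised, linear axes from 0 that differ between panels) in each of the 8 libraries, with circles for replicate 1, squares for replicate 2 and a line at the mean of the 2. Oaz1 lay higher in all 4 busulfan libraries (500 to 634) than in the 4 vehicle libraries (157 to 322), while Oaz3 lay lower after busulfan in each genotype.

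The fall of Oaz3 was 2.10-fold in wt (log2 fold change -1.07 ± 0.36 SE, adjusted p = 0.00987) and 1.91-fold in dcat (-0.93 ± 0.37, adjusted p = 0.0305; edgeR quasi-likelihood test with Benjamini-Hochberg adjustment over 2311 genes or unnamed contigs). Among all genes tested, 76% were called in wt and 65.3% in dcat, in either direction, so a call by itself does not set Oaz3 apart. The wt call was lost without wt vehicle replicate 1 (adjusted p = 0.112) or without wt busulfan replicate 1 (0.194). The dcat call was lost without dcat vehicle replicate 2 (0.442) or without dcat busulfan replicate 1 (0.165). In bulk RNA, fewer cells of a type and less RNA per cell cannot be told apart.

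The fall of Oaz3 was smaller than that of the summed reads of the late spermatid list. For each read of the 14 markers together, wt had 0.0420 and 0.0244 Oaz3 reads after vehicle and 0.139 and 0.198 after busulfan. In dcat the values were 0.0195 and 0.0267 after vehicle and 0.0476 and 0.0412 after busulfan. The ratio was 5.18 times higher after busulfan in wt and 1.94 times higher in dcat, with no overlap between treatments in either genotype. Odc1 rose more against the same list, 8.27-fold in wt and 2.82-fold in dcat. All of these ratios are given without a test. The sum follows its most-read members most, and the members were not each compared with Oaz3. Smcp, which is on the list, did not fall more than Oaz3 in wt. It had 5355 and 6722 CPM (TMM-scaled) after vehicle and 2479 and 4358 after busulfan in wt. In dcat Smcp had 4444 and 5351 against 2548 and 2429.

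Oaz1 moved the opposite way. In wt it had 12 and 11 reads after vehicle and 36 and 65 after busulfan, and in dcat 10 and 24 against 34 and 49. These are 232, 157, 322 and 191 CPM after vehicle and 507, 634, 542 and 500 after busulfan, and the 2 sets of libraries did not overlap. Oaz1 rose 2.996-fold in wt (log2 fold change 1.58 ± 0.43 SE, edgeR adjusted p = 0.00190) and 2.242-fold in dcat (1.16 ± 0.42, adjusted p = 0.0185). Among all genes tested, 76% were called in wt (899 higher) and 65.3% in dcat (755 higher). The rise of Oaz1 was the 744th largest of 2311 in wt and the 757th in dcat, so it does not set Oaz1 apart. The dcat call was lost without dcat vehicle replicate 2, where the log2 fold change was 0.69 (edgeR adjusted p = 0.350), with DESeq2 (0.92, adjusted p = 0.170) and with only the 4 libraries of the comparison (1.14, adjusted p = 0.0552). Leydig and Sertoli marker levels moved in the same direction over the same libraries, and their part in the Oaz1 change was not tested.

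Oaz2, the rarest member, had 3 to 14 reads in a library. There were 12 and 11 after vehicle and 3 and 12 after busulfan in wt, and 6 and 14 against 7 and 8 in dcat. Only vehicle-treated wt had 10 reads of it in both replicates, the rule for a transcript to be included. Oaz2 was thus kept through a group where it was high, so its differences from that group are not independent of the rule. Its log2 fold change after busulfan was -1.14 in wt (95% interval -2.26 to -0.01, edgeR adjusted p = 0.0615) and -0.48 in dcat (-1.65 to 0.70, adjusted p = 0.467), so neither value passed. The wt fall passed with RLE scaling (-1.41, edgeR adjusted p = 0.0223), with only the 4 libraries of the comparison (-1.29, adjusted p = 0.0150) and without wt busulfan replicate 2 (-2.12, adjusted p = 0.0269), and its sign was negative in all 9 alternatives (-2.12 to -0.69).

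Odc1, the enzyme that all 3 antizymes act on, had 26 and 52 reads in wt with either treatment, and 13 and 67 after vehicle against 24 and 35 after busulfan in dcat. Its wt levels were 503 and 741 CPM after vehicle and 366 and 507 after busulfan, and its dcat levels 419 and 534 against 382 and 357. The treatments overlapped in wt and not in dcat. The log2 fold change was -0.51 in wt (95% interval -1.27 to 0.25, edgeR adjusted p = 0.210) and -0.42 in dcat (-1.21 to 0.38, adjusted p = 0.342), although RLE scaling, which lowered all log2 fold changes by a median of 0.26 in wt, gave a wt value of -0.77 that passed (adjusted p = 0.0442).

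Within a library the members can be set against each other without any scaling. For each Oaz1 read, vehicle-treated wt had 18.7 and 18.8 Oaz3 reads and vehicle-treated dcat 5.40 and 15.8. After busulfan there were 2.08 and 3.72 in wt and 1.82 and 3.10 in dcat, and no busulfan library reached the lowest vehicle library. The mean log2 ratio was 3.72 ± 0.86 (SD, n = 4) after vehicle and 1.36 ± 0.48 (SD, n = 4) after busulfan, a 5.12-fold lower ratio (exact two-sided permutation test, p = 0.0286, the smallest p that 4 against 4 libraries allow). Adjusted over the 4 within-library measures tested, p was 0.0571 by the same exact test. Here and below, this test shuffled the treatments over both genotypes and ignored the pairing of same-numbered replicates. With the pairing kept, 4 paired differences cannot give an exact permutation p under 0.125. The ratio was 6.73-fold lower in wt and 3.89-fold lower in dcat, where 2 against 2 libraries cannot give an exact p below 0.333.

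Oaz2 fell against Oaz1 by a like factor. There were 1 and 1 Oaz2 reads for each Oaz1 read in wt and 0.600 and 0.583 in dcat after vehicle, against 0.0833 and 0.185 in wt and 0.206 and 0.163 in dcat after busulfan. The ratio was 5.10-fold lower after busulfan over both genotypes, 8.06-fold in wt and 3.23-fold in dcat, with no overlap of the treatments and with no test. A lower ratio to Oaz1 was thus measured for both Oaz3 and Oaz2. For Oaz2 the wt value is not independent of the inclusion rule, which it passed only through vehicle-treated wt.

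The Oaz1 to Odc1 ratio had the same separation in the other direction. After vehicle it was 0.462 and 0.212 in wt and 0.769 and 0.358 in dcat, and after busulfan 1.38 and 1.25 in wt and 1.42 and 1.40 in dcat. The difference was 3.36-fold (exact permutation test, p = 0.0286, adjusted p = 0.0571). The Oaz3 to Odc1 ratio was 1.52-fold lower after busulfan with overlapping libraries (exact permutation test, p = 0.171, adjusted p = 0.171). Odc1 and both antizymes contribute to more than 1 of these ratios, so the 3 are not independent. Reads are molecules and were not scaled for transcript length, and the changes in the ratios, not their levels, are compared here.

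**Figure D2:**
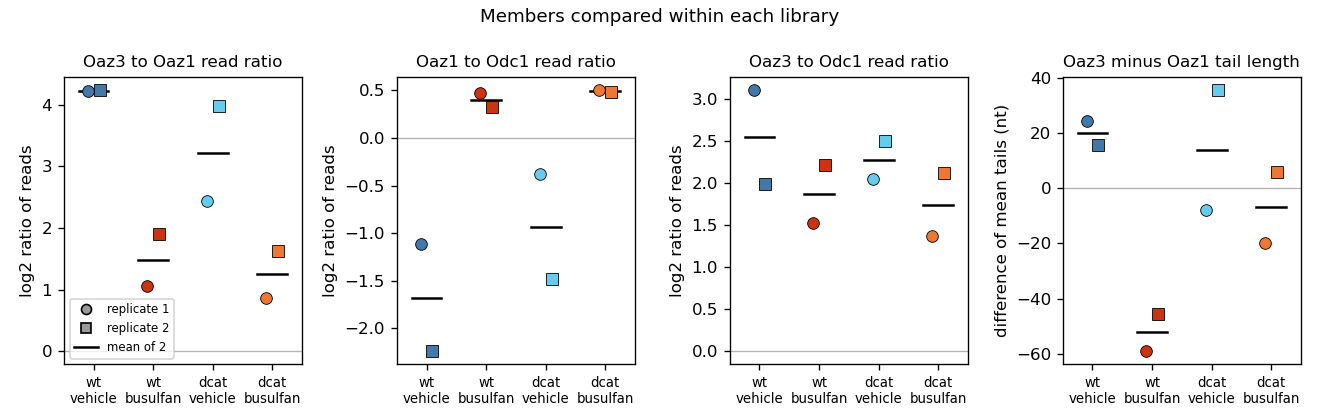
Members compared within each of the 8 libraries, as log2 ratios of reads in the first 3 panels and as a difference of mean poly(A) tail lengths in nt in the last, with circles for replicate 1, squares for replicate 2 and a line at the mean of the 2. The Oaz3 to Oaz1 ratio was between 2.43 and 4.23 on the log2 scale after vehicle and between 0.87 and 1.90 after busulfan.

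Between genotypes no member was called in read level. After vehicle 0% of 2311 genes were called with edgeR (53 had an unadjusted p under 0.05), and after busulfan 5.5% were. Oaz3 had a dcat minus wt log2 fold change of -0.57 after vehicle (95% interval -1.31 to 0.17) and -0.43 after busulfan (-1.19 to 0.33, edgeR adjusted p = 0.564). The values for Oaz1 were 0.27 (-0.73 to 1.28) and -0.14 (-0.89 to 0.60), for Oaz2 -0.53 (-1.61 to 0.56) and 0.13 (-1.10 to 1.36), and for Odc1 -0.35 (-1.12 to 0.43) and -0.26 (-1.04 to 0.52). After vehicle, each of the 4 intervals reaches a difference of more than 2-fold in 1 direction.

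The poly(A) tail of Oaz3 was shorter after busulfan in both genotypes, and longer in dcat than in wt among the busulfan-treated testes. After vehicle, its mean was 143 and 145 nt in wt and 143 and 152 nt in dcat. After busulfan it was 68.6 and 63.6 nt in wt and 106 and 128 nt in dcat. The 4 vehicle libraries lay close together, both wt busulfan libraries fell far below them, and the dcat busulfan libraries lay between.

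**Figure D3:**
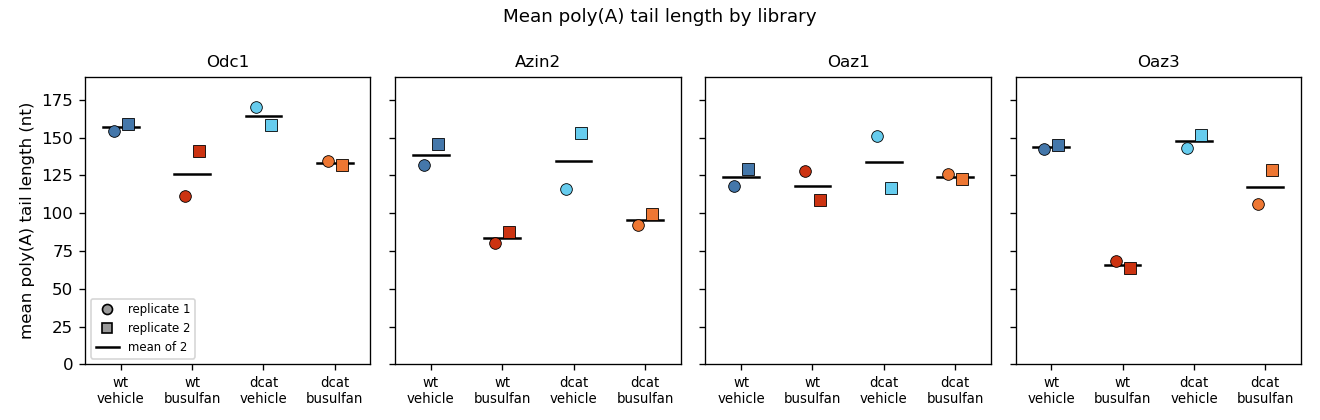
Mean poly(A) tail length in nt of Odc1, Azin2, Oaz1 and Oaz3 in each of the 8 libraries (shared linear axis from 0), with circles for replicate 1, squares for replicate 2 and a line at the mean of the 2. The wt busulfan libraries had the shortest Oaz3 tails (68.6 and 63.6 nt), while Oaz1 means ranged over 109 to 151 nt with overlapping groups.

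The mean Oaz3 tail fell by 77.8 nt in wt after busulfan (SE 6.98, adjusted p = 3.55e-05, limma over 537 genes with at least 10 reads in each library compared). This was the 9th largest fall among the 537, of which 36.7% were called. In dcat it fell by 30.3 nt (SE 7.51, limma adjusted p = 0.0174 over 464 genes, of which 32.3% were called), the 120th largest of 464. Nearly all calls were toward shorter tails, and over all genes tested the median change was -19.9 nt (wt) and -17.7 nt (dcat). After each library was centred on its own median gene, which takes 24.6 nt off the shift in wt and 22.8 nt in dcat, the Oaz3 change stayed called in wt and was -7.54 nt in dcat (adjusted p = 0.456). The dcat call was also lost without dcat vehicle replicate 2 (-26.0 nt, limma adjusted p = 0.0901) or without dcat busulfan replicate 1 (-19.3 nt, adjusted p = 0.0874).

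The difference between genotypes after busulfan was measured directly. The mean Oaz3 tail was 51.3 nt longer in dcat than in wt (SE 7.46, limma adjusted p = 6.15e-04). It was the largest increase among the 1083 genes tested, of which 0.923% were called, 2 longer and 8 shorter in dcat. The other called longer was Crisp2 (49.7 nt), a sperm protein of the testis. Without the trend of variance on read number the estimate is the same and the adjusted p is 0.0902. After vehicle the difference was 3.78 nt (95% interval -13.0 to 20.6 nt), and 0% of 707 genes were called with limma (29 had an unadjusted p under 0.05). These comparisons share the wt busulfan and vehicle libraries with the ones above and are not separate evidence.

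Whether busulfan changed the Oaz3 tail differently in the 2 genotypes was tested as an interaction. Its value was 47.5 nt (95% interval 24.1 to 70.9 nt), which did not pass at the gene level (limma adjusted p = 0.162 over 372 genes, of which 0.269% were called). It was the 4th most positive of the 372. It passed in centred libraries (45.7 nt, limma adjusted p = 0.00660), on log2 lengths (adjusted p = 0.0259) and without dcat busulfan replicate 1 (58.5 nt). In the remaining 12 of 15 alternative settings it did not pass. The corresponding values were -4.03 nt for Oaz1 (-45.1 to 37.0 nt) and -0.74 nt for Odc1 (-35.5 to 34.0 nt). The 2 Oaz3 transcripts were also fitted apart, as given further on.

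**Figure D4:**
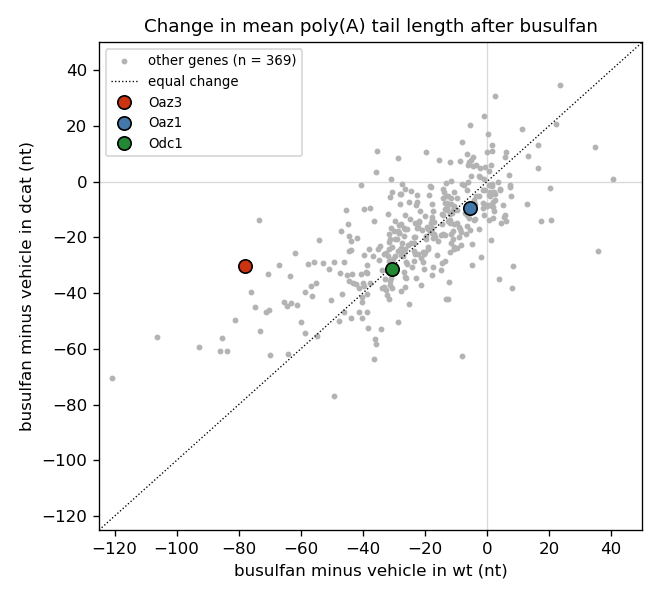
Change in mean poly(A) tail length after busulfan in wt (horizontal axis, nt) and in dcat (vertical axis, nt) for the 372 genes with at least 10 reads in all 8 libraries, with a dotted line where both changes are equal. Oaz3 (-77.8 nt in wt and -30.3 nt in dcat) lies away from that line, while Odc1 (-30.5 and -31.3 nt) lies on it and Oaz1 (-5.54 and -9.56 nt) close to it and to 0. After centring of the libraries both Oaz1 values turn positive. The position of Oaz3 is not particular to it. Each gene with a larger fall in wt than Oaz3 also fell less in dcat, such as Pgk2 (-92.9 and -59.5 nt) and Stard6 (-85.4 and -56.1 nt).

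The distributions of single reads show the same. The share of Oaz3 reads with short tails (30 to 120 nt) was 29.9% (95% Wilson interval 24.3 to 36.2%) and 29.95% (24.1 to 36.5%) in the wt vehicle libraries, and 89.3% (80.3 to 94.5%) and 85.1% (80.1 to 89.1%) in the wt busulfan libraries. In dcat it was 27.8% (17.6 to 40.9%) and 23.9% (19.9 to 28.5%) after vehicle and 71.0% (58.7 to 80.8%) and 41.4% (33.9 to 49.4%) after busulfan. The dcat busulfan replicates differed beyond these intervals, which cover counting error only, and both lay between the vehicle libraries and the wt busulfan libraries.

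Long tails (120 to 210 nt) made up 63.8% and 58.5% of wt Oaz3 reads after vehicle and 9.33% and 6.61% after busulfan. In dcat they made up 57.4% and 67.6% after vehicle and 25.8% and 55.3% after busulfan. The median Oaz3 tail was 55.2 and 52.5 nt in the wt busulfan libraries and 96.5 and 138 nt in the dcat busulfan libraries, against 152 to 164 nt after vehicle.

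**Figure D5:**
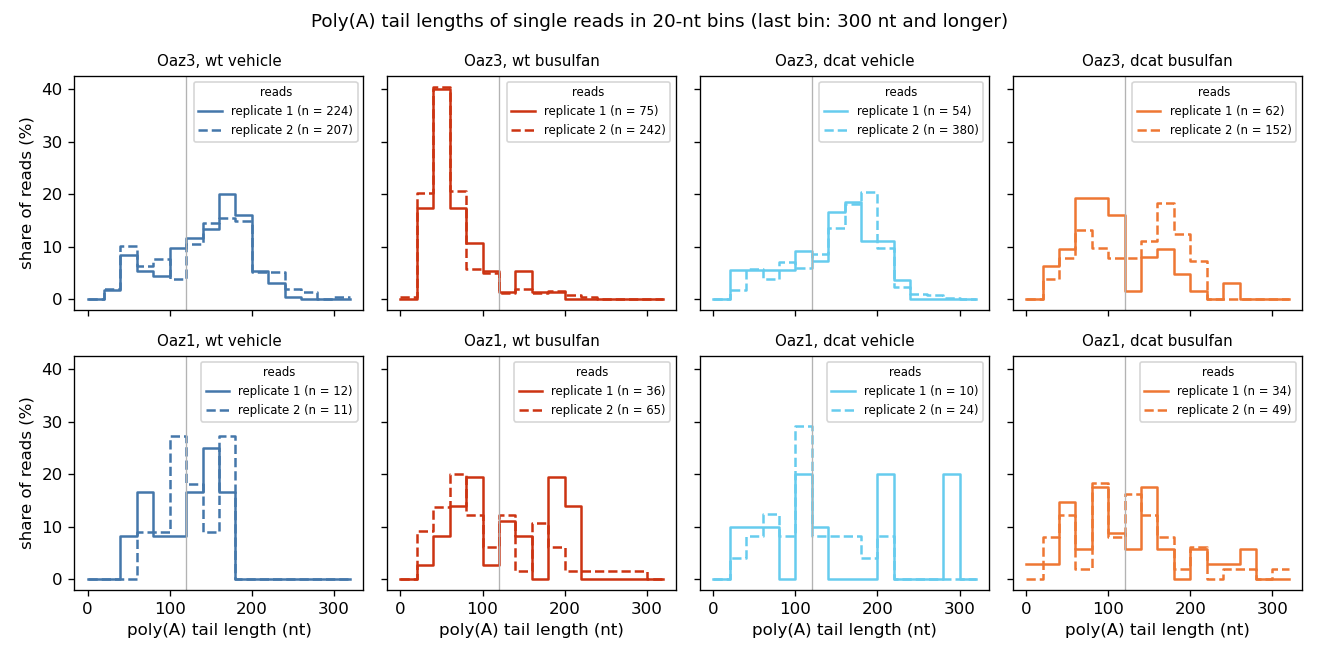
Share of reads (%) by poly(A) tail length in 20-nt bins for Oaz3 (upper row) and Oaz1 (lower row) in each group, with a solid line for replicate 1, a broken line for replicate 2, the number of reads in each legend and a grey line at 120 nt. Oaz3 reads gathered at 40 to 60 nt in wt busulfan (30 of 75 and 98 of 242 reads) and at longer tails in the other groups, and Oaz1 reads were spread widely in all 4 groups.

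Germ cell markers and most of the somatic marker lists differed between the genotypes after busulfan, as the Oaz3 tails did. The dcat library with the higher marker level (38139 CPM) had the longer Oaz3 tail (128 nt), the other dcat library (21177) had 106 nt, and the wt libraries (8175 and 10613) had 68.6 and 63.6 nt, so that within wt the order was the reverse. The 4 measured spermatocyte markers summed to 273 and 390 CPM in wt and 439 and 838 in dcat, and the 7 round spermatid markers to 75.7 and 191 in wt and 244 and 651 in dcat. Leydig and Sertoli markers were lower in both dcat libraries than in both wt libraries, as given above. The 2 erythroid markers summed to 924 and 771 CPM in wt and 0 and 20.7 in dcat. The 3 measured macrophage markers summed to 954 and 1074 CPM in wt and 878 and 703 in dcat. The 1 measured peritubular marker did not separate the genotypes (469 and 502 CPM in wt, 390 and 548 in dcat). The mitochondrial share was 15.4 and 14.8% in wt and 16.2 and 13.97% in dcat. The part of cell content in the tail differences was not tested.

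The tail differences were present in both Oaz3 transcripts. The mean tail of ENSMUST00000199678 was 143 and 149 nt after vehicle against 68.6 and 63.9 nt after busulfan in wt, and 145 and 149 nt against 112 and 127 nt in dcat. That of ENSMUST00000203883 was 142 and 141 nt against 68.6 and 63.0 nt in wt, and 141 and 156 nt against 99.7 and 132 nt in dcat. In no library were the means of the 2 transcripts more than 12.1 nt apart.

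In the fits over transcripts, the wt change was -79.5 nt for ENSMUST00000199678 (limma adjusted p = 1.43e-05) and -75.6 nt for ENSMUST00000203883 (2.03e-04), where 36.1% of 527 transcripts were called. The dcat changes were -27.7 nt (limma adjusted p = 0.0206) and -32.4 nt (0.0487), where 30.4% of 441 were called. After busulfan the tails were 53.1 nt (limma adjusted p = 0.00140) and 49.98 nt (0.0365) longer in dcat than in wt, where 1.18% of 1188 were called. The interaction passed for ENSMUST00000199678 (51.8 nt, SE 9.61, limma adjusted p = 0.0422) and not for ENSMUST00000203883 (43.2 nt, SE 15.1, adjusted p = 0.453), where 0.885% of 339 were called. The called interaction was lost in 9 of 15 alternative settings, among them 7 of the 8 that left out 1 library. The dcat calls were lost for both transcripts in centred libraries (-4.53 and -9.19 nt), with only the libraries of the comparison, without dcat vehicle replicate 1, without dcat vehicle replicate 2 or without dcat busulfan replicate 1. For ENSMUST00000203883 the dcat call was lost in 8 of 12 alternative settings. Its genotype call after busulfan was lost in 4 of 12, among them without wt busulfan replicate 2 (47.1 nt) or without dcat busulfan replicate 2 (33.9 nt).

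The use of the 2 transcripts did not separate the groups. ENSMUST00000203883 took 28.6% and 44.9% of Oaz3 reads after vehicle and 34.7% of them in both busulfan libraries in wt, and 38.9% and 44.7% against 45.2% and 28.9% in dcat, and the ranges of the groups overlapped.

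The Oaz1 tail was not called in any comparison. In wt its mean was 118 and 129 nt after vehicle and 128 and 109 nt after busulfan, and in dcat 151 and 117 nt against 126 and 122.5 nt, on 10 to 65 reads. The change after busulfan was -5.54 nt in wt (95% interval -32.7 to 21.6 nt) and -9.56 nt in dcat (-38.7 to 19.5 nt), and centred libraries turned both to 19.1 and 13.2 nt, so no direction can be given. The dcat minus wt difference was 10.004 nt after vehicle (-21.8 to 41.8 nt) and 5.98 nt after busulfan (-17.8 to 29.8 nt).

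Compared within a library, the Oaz3 tail was longer than the Oaz1 tail in vehicle-treated wt, by 24.5 and 15.7 nt, and shorter in busulfan-treated wt (differences of -59.0 and -45.4 nt). In dcat the difference was -7.73 and 35.4 nt after vehicle and -19.8 and 5.87 nt after busulfan. Over both genotypes it was 46.5 nt lower after busulfan (a change of -46.5 nt, exact two-sided permutation test, p = 0.0571, adjusted p = 0.0762), and dcat libraries of the 2 treatments overlapped. With medians in place of means the change was -60.6 nt (exact permutation test, p = 0.0286). Only a library shift that is equal for both genes cancels in this difference, and any change of the Oaz1 tail itself remains in it.

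The wt Odc1 tail was 155 and 159 nt after vehicle and 111 and 141 nt after busulfan, and the dcat one 170 and 158 nt against 135 and 132 nt. No busulfan library reached the vehicle range in either genotype. The change was -30.5 nt in wt (SE 10.8, limma adjusted p = 0.0426) and -31.3 nt in dcat (SE 11.1, adjusted p = 0.0588), the 163rd largest fall of 537 and the 115th of 464. After centring, the wt change was -5.90 nt (limma adjusted p = 0.726), near that of the median gene. The wt call was lost without either wt vehicle library (adjusted p = 0.125 and 0.166), without wt busulfan replicate 1 (0.408) and without the trend (0.0542). Between genotypes Odc1 tails differed by 7.56 nt after vehicle (95% interval -16.0 to 31.1 nt) and 6.82 nt after busulfan (-16.6 to 30.2 nt).

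Of the Odc1 transcripts, ENSMUST00000221613, annotated as a nonsense-mediated decay product, was given 46.2% and 53.8% of wt Odc1 reads after vehicle and 50% and 40.4% after busulfan. In dcat the shares were 69.2% and 61.2% against 62.5% and 45.7%. It shares 1477 exon bases with the coding transcript and ends 421 bases further downstream. A partial read with that end does not show which exons lay upstream, so these shares do not measure a decay product. The wt mean tail of ENSMUST00000221613 was 150 and 155 nt after vehicle and 101 and 129 nt after busulfan, a change of -37.7 nt (limma adjusted p = 0.0447). This change was not called in centred libraries (-13.7 nt, limma adjusted p = 0.535), without wt vehicle replicate 1, wt vehicle replicate 2 or wt busulfan replicate 1. The coding transcript had 159 and 164 nt against 122 and 150 nt, a change of -25.4 nt (limma adjusted p = 0.169).

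The Oaz2 tail could not be tested, since no comparison had 10 reads in each library. Its mean was between 101 and 137 nt in the 8 libraries.

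Other genes of the polyamine pathway were taken from a list of 29 that included the members, of which 6 were among the transcripts. Beside the 4 members these were Azin2 and Slc3a2, the heavy chain shared by several amino acid transporters. Of the 6, 2 rose and 1 fell in wt after busulfan (median log2 fold change -0.28, against 0.29 over all genes) and the same counts held in dcat (median 0.24, against 0.15). The 2 that rose were Oaz1 and Slc3a2, and Slc3a2 passed the inclusion rule only through the busulfan groups, where it was high. Over all genes 76% were called in wt (899 higher and 858 lower) and 65.3% in dcat (755 in each direction), so the share of the list called was below that of all genes. None of the 6 was called between genotypes in read level (0 in both treatments).

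Slc3a2 was the other gene that rose. In wt it had 6 and 5 reads after vehicle and 35 and 47 after busulfan, and in dcat 3 and 13 against 19 and 26. Neither vehicle group met the inclusion rule, so Slc3a2 was kept only through the busulfan groups, where it was high. Its rise after busulfan is thus not independent of that rule in either genotype. The rise was 5.15-fold in wt (log2 fold change 2.36 ± 0.49 SE, edgeR adjusted p = 1.64e-04) and 2.74-fold in dcat (1.45 ± 0.50, adjusted p = 0.0138). The dcat call was lost with DESeq2 (1.28, adjusted p = 0.125) and without dcat vehicle replicate 2 (1.53, edgeR adjusted p = 0.146). Its tail was testable between genotypes after busulfan only, where it was 19.8 nt longer in dcat (limma adjusted p = 0.824).

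Azin2 had 19 and 17 reads after vehicle and 11 and 41 after busulfan in wt, and 8 and 29 against 30 and 41 in dcat. Its log2 fold change was -0.06 in wt (95% interval -1.001 to 0.89, edgeR adjusted p = 0.914) and 0.89 in dcat (-0.04 to 1.83, adjusted p = 0.0868). Its tail was also shorter after busulfan in wt, with means of 132 and 146 nt after vehicle and 80.3 and 87.4 nt after busulfan, a change of -54.8 nt (SE 11.5, limma adjusted p = 0.00505, where 36.7% of genes were called). In centred libraries it was -30.2 nt and not called (limma adjusted p = 0.0950). It was not called between genotypes after busulfan, with means of 91.9 and 99.7 nt in dcat and a difference of 11.9 nt (95% interval -10.7 to 34.5 nt, limma adjusted p = 0.930). Whether the genotype differences of Oaz3 and Azin2 differ from each other was not tested.

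The genes whose read levels were most like those of Oaz3 over the 8 libraries were Gstm5 (Pearson r = 0.976), Dbil5 (0.968) and Vps4a (0.945), on the log2 CPM scale among 2310 other genes. Those most like Oaz1 were Rplp1 (r = 0.998), Susd3 (0.994) and Mdh1 (0.993). Those most like Odc1 were Gatad1 (0.950), Smcp (0.911) and Sugt1 (0.903). Among the members, Oaz3 and Odc1 had an r of 0.752 and Oaz3 and Oaz1 one of -0.716. The 8 libraries share 4 group levels and their scaling, so these are descriptions.

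In tail length, measured for 371 other genes with at least 10 reads in all 8 libraries, the most like Oaz3 were 4933411K16Rik (Pearson r = 0.984), Crisp2 (0.980) and Gsg1 (0.978). Among those most like Oaz1 were Gnas (0.872) and Tsc22d1 (0.765). Those most like Odc1 were Dnajb6 (0.974), Rpl34 (0.970) and Atp5mc3 (0.958). Oaz3 and Odc1 had an r of 0.753 and Oaz3 and Oaz1 one of 0.334.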

How the data were processed

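The authors basecalled with Guppy, aligned reads to GENCODE transcripts of GRCm38 with minimap2 (2.20-r1061 per the labels), demultiplexed with Deeplexicon and estimated tails with Nanopolish. They deposited raw read counts per transcript and a table of 1 tail length (another unit, nt) per read, for transcripts that reached 10 reads in both replicates of some group. They also deposited DESeq2 log2 fold changes and adjusted p-values for dcat against wt, which were not used here. Counts were summed by gene symbol. Counts were tested with edgeR 4.0.16 (quasi-likelihood, TMM) and mean tails with limma 3.58.1 (eBayes with trend) over 8 libraries as 4 groups, at an adjusted p of 0.05. edgeR was also run with RLE scaling and a filter, beside DESeq2 1.42.0. The edgeR and limma fits, but not DESeq2, were tested on simulated data. Ratios were compared by exact permutation tests.

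The labels state that replicates 1 and 2 are 2 multiplexed libraries, each with 1 mouse per group, so the numbers pair the samples. Deviations of same-numbered samples from their group means correlated by -0.10 to 0.26 over genes for reads and -0.03 to 0.11 for tails. The fits had no replicate block, as in the methods of the study. The table listed 176 read names more than once. Named were all members, a polyamine list, the 3 genes most like Oaz3, Oaz1 and Odc1 (1 is not reported here), marker sums, overlapping genes and Tent5c. The members and lists were chosen with earlier results of these data known. Wilson intervals (95%) cover counting error only.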

Additional observations from a re-analysis of the deposited data

Results flagged for a closer look

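A test of a difference between the genotypes singled out 1 value. The change in mean tail length of Oaz3 transcript ENSMUST00000199678 after busulfan was less negative in dcat than in wt by 51.8 nt (SE 9.61, limma adjusted p = 0.0422). This call was lost in 9 of 15 alternative settings. The second transcript gave 43.2 nt (limma adjusted p = 0.453) and the gene as a whole 47.5 nt (adjusted p = 0.162). The late spermatid markers were also higher in dcat than in wt after busulfan (21177 and 38139 against 8175 and 10613 CPM), and their part was not tested.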

How the results depend on the processing

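Each comparison was repeated with other settings, 1 at a time. Of 667 alternative values for 72 results, 526 had the direction and the side of the threshold of the value reported or, for counts and shares, stayed near it. The causes of the changes below were not tested.

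In read level, DESeq2 gave Oaz1 in dcat a log2 change after busulfan of 0.92. Only the libraries of the comparison gave 1.14 for Oaz1 and -0.92 for Oaz3 in dcat, neither called. RLE scaling, which shifted all log2 changes after busulfan by a median of -0.26 in wt and -0.20 in dcat, gave Odc1 -0.77 and Oaz2 -1.41 in wt, both called, and only the libraries of the comparison gave Oaz2 -1.29 in wt, also called. DESeq2 did not call Slc3a2 in dcat (1.28). With a filter on low counts the uncalled Azin2 change in wt turned to 0.027.

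In tail length, centred libraries gave Oaz3 in dcat -7.54 nt, Odc1 in wt -5.90 nt and Azin2 in wt -30.2 nt, all no longer called, brought the Oaz3 interaction past the threshold (45.7 nt), as did log2 lengths (0.78), turned Oaz1 to 19.1 nt (wt) and 13.2 nt (dcat), and turned the genotype difference of ENSMUST00000199678 after vehicle to -1.36 nt. Without the variance trend, Oaz3 between genotypes after busulfan (51.3 nt) and Odc1 in wt (-30.5 nt) were no longer called. Medians brought the Odc1 change in dcat past the threshold (-49.8 nt), as they did the Oaz3 minus Oaz1 difference (-60.6 nt), and turned the uncalled Oaz1 genotype difference after vehicle to -8.64 nt and the Oaz1 interaction to 14.9 nt. On log2 lengths the signs of the uncalled Oaz1 genotype difference after vehicle (-0.043), the Oaz1 and Odc1 interactions (0.11 and 0.095) and the difference of ENSMUST00000199678 after vehicle (-0.0098) turned. Counting all tails under 120 nt as short moved the share of Oaz3 in wt busulfan to 91.6% and of Oaz1 in dcat busulfan to 51.0%.

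With the replicate block, the Oaz3 to Oaz1 log2 ratio changed by the same -2.35, but its 4 paired differences cannot give an exact permutation p under 0.125. In the fits, the replicate block changed no call of a member. Without any 1 library the change of this ratio was between -2.78 and -2.18, and 4 against 3 libraries cannot give an exact permutation p under 0.0571.

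Leaving out each replicate in turn gave these ranges for results of genes that lost or gained a call or turned. For log2 changes after busulfan, Oaz3 had -1.78 to -0.62 in wt and -1.31 to -0.44 in dcat, Oaz1 0.69 to 1.39 in dcat, Slc3a2 1.37 to 1.55 in dcat, Oaz2 -2.12 to -0.69 in wt, and Azin2 -0.94 to 0.41 in wt. For uncalled genotype log2 differences after busulfan, Oaz3 had -0.88 to 0.28, Oaz1 -0.29 to 0.034, Odc1 -0.46 to 0.0093 and Oaz2 -0.31 to 1.12, and after vehicle Oaz2 had -0.80 to 0.026. For tail changes after busulfan, Oaz3 had -41.4 to -19.3 nt in dcat, Odc1 -45.5 to -15.6 nt in wt, and Oaz1 -14.9 to 3.81 nt (wt) and -26.8 to 7.68 nt (dcat). For tail differences between genotypes after vehicle, Oaz3 had -0.55 to 8.11 nt, its transcripts ENSMUST00000199678 -1.45 to 4.04 nt and ENSMUST00000203883 -0.76 to 14.2 nt, and Oaz1 -7.24 to 27.2 nt. After busulfan, Oaz1 had -3.37 to 15.3 nt and Odc1 -8.14 to 21.8 nt. The interaction was 36.5 to 58.5 nt for Oaz3, -21.3 to 13.2 nt for Oaz1 and -15.7 to 14.2 nt for Odc1. The called interaction of ENSMUST00000199678 passed without dcat busulfan replicate 1 and in no other such fit (44.3 to 59.4 nt).

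Counts of genes called moved by over 1.5 times in these cases. For reads, dcat after busulfan had 1510 genes and 621 without dcat vehicle replicate 2, and the genotypes after busulfan had 127 and 7 to 318 without 1 library. The replicate block called 1 gene between genotypes after vehicle, against 0. For tails, wt after busulfan had 197, and 130 at 20 reads, 106 centred and 104 to 151 without 1 library. dcat had 150, and 97 at 20 reads, 75 centred, 92 with only its libraries and 55 to 158 without 1 library. The genotypes after busulfan had 10, and 6 with medians, 23 on log2 lengths, 2 without the trend, 18 with only their libraries and 10 to 17 without 1 library, and after vehicle 0 and 1 with only their libraries. The gene interaction had 1, and 5 on log2 lengths, 5 centred, 0 without the trend and 1 to 4 without 1 library. The transcript interaction had 3, and 1 with medians, 5 on log2 lengths, 8 centred, 0 without the trend and 1 to 3 without 1 library. Oaz2, with 3 to 14 reads in a library, is limited most by depth.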
